A study of Homo sapiens with 4 samples.

Results

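Homologous recombination copies sequence from an intact sister chromatid to mend broken DNA. It is used in cells that are replicating or have replicated their genome. The Fanconi anemia pathway unhooks crosslinks between DNA strands and hands the resulting breaks to recombination, and mismatch repair removes bases misincorporated by the replicative polymerases. Many of these genes are transcribed with the cell cycle in proliferating cells, whereas the kinases that sense damage are needed in resting cells too. The genes described here are 40 members of these pathways, listed by name with earlier results of these data known, of which 39 were found among the 18885 genes listed for ANP32B knockdown. FANCF, a subunit of the Fanconi core complex, was not analysed here. All 39 had at least 1 TPM in at least 2 libraries and were tested, with a filter that all genes had to pass.

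The cells were MV4-11, a human acute myeloid leukemia (AML) line, sequenced as 2 control libraries (sh-NC) and 2 libraries from cells carrying an shRNA against ANP32B (sh-ANP32B). For the controls the labels list no shRNA, while the methods describe an sh-NC hairpin and selection of stable lines with puromycin, and which of these holds for the sequenced controls was not settled. If they carried no hairpin, the effects of vector and selection cannot be told apart from loss of ANP32B. The knockdown columns carry the mark S3, so the comparison rests on what appears to be a single hairpin in this line. The study states in general terms that its experiments were repeated independently, but no source used here says whether these libraries came from separate cultures, so p-values measure only the spread between these libraries, which may be technical.

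Values are TPM, read density over gene length scaled to a common total, so levels can be compared between genes. ANP32B itself had 358 and 364 TPM with sh-NC and 54.1 and 49.3 TPM after knockdown, 14.3% of the control mean. The line's markers CD33, FLT3, MEIS1, HOXA9, PTPRC and CD4 were all present. CD4 and PTPRC rose and MEIS1 fell among these markers, and the T cell marker CD2 went from 0.52 and 0.44 TPM to 3.62 and 3.63 TPM. CD2 reached 1 TPM in the knockdown libraries alone, so it passed the filter only through the group where it was high. The log2 fold change (log2FC) is that of TPM + 1, sh-ANP32B against sh-NC, from limma over the 16937 genes tested. A gene was called when its Benjamini-Hochberg adjusted p was below 0.05 and its log2 fold change lay beyond 0.5 in either direction, and the words rose and fell are used of called genes. In this design of 2 against 2, exact permutation of the libraries for 1 gene cannot go below a two-sided p of 0.333, so the adjusted p-values rest on the variance limma shares among genes.

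Of the 39 genes, 29 fell after ANP32B knockdown, 1 rose and 9 were not called. Across all genes tested, 10.1% were called lower and 17.9% higher. The median log2FC of the 39 genes was -0.86, beside 0.08 for all genes tested. Summed over the 39 genes, the libraries held 1436 and 1464 TPM with sh-NC and 856 and 836 TPM with sh-ANP32B. In 36 of the 39 genes both knockdown libraries lay below both control libraries, which was so for 32.1% of all genes. In 1 gene both lay above, against 42.5% of all genes. Of the 9 genes not called, 5 were damage kinases and sensors, and the gene that rose was ATM, the kinase recruited to broken DNA ends.

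**Figure D1:**
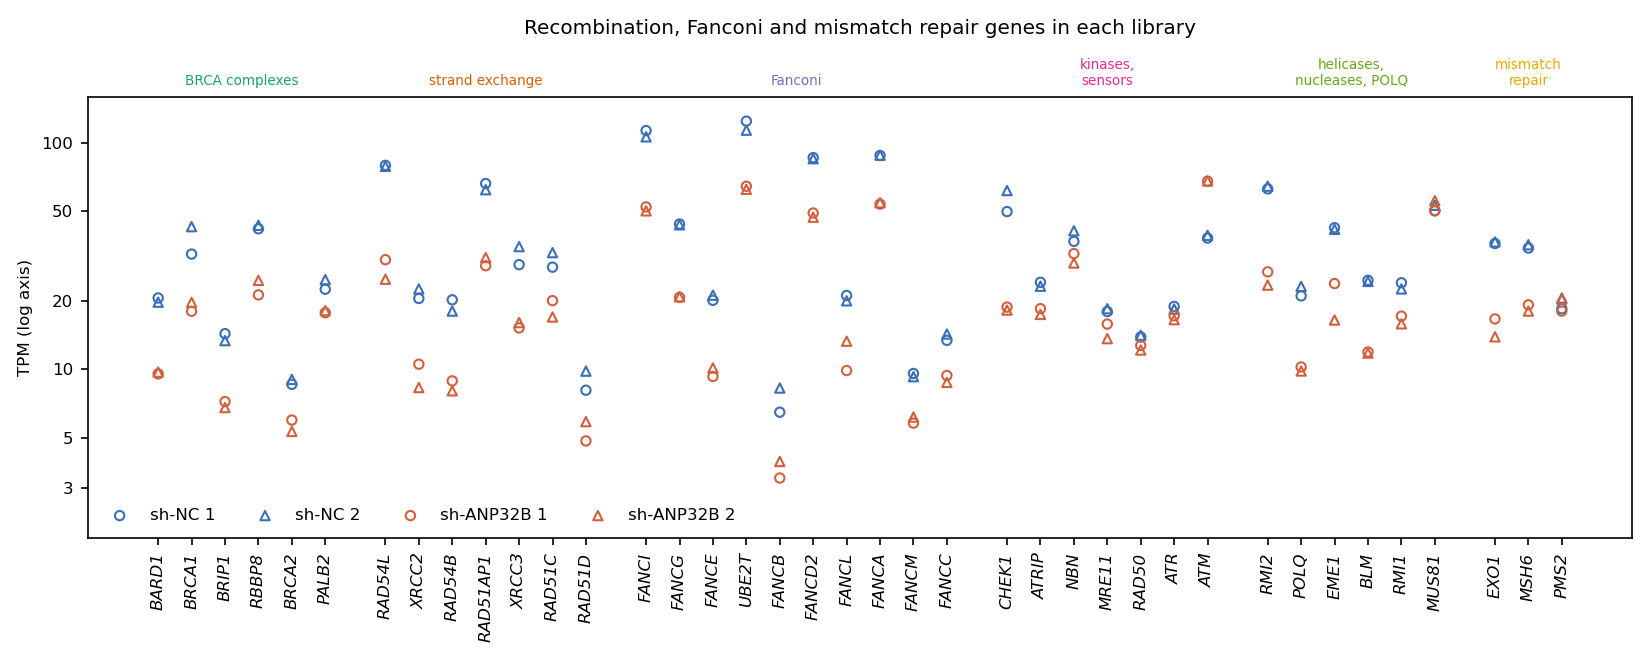
TPM of the 39 genes (log axis) in each of the 4 libraries, grouped by role, with circles for replicate 1 and triangles for replicate 2. Control libraries lie above knockdown libraries in 36 genes, ATM lies the other way, and MUS81 and PMS2 overlap.

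To show the regulatory sequence of genes at both ends of this range, the promoters of the 3 most reduced genes with an entry (CHEK1, RAD54L and EXO1) and of MUS81, the least reduced apart from ATM, are printed from RefSeq (GRCh38.p14). Each runs from 250 bases before the annotated start site to 20 bases into the transcript, and capitals mark matches to the motifs described next.
CHEK1 promoter, chr11:125625979-125626248, plus strand: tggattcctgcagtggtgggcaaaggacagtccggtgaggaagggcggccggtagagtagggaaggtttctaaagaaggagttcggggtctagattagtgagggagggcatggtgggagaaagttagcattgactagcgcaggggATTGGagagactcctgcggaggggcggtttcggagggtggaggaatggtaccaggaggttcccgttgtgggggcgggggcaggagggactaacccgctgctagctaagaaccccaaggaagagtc
RAD54L promoter, chr1:46247438-46247707, plus strand: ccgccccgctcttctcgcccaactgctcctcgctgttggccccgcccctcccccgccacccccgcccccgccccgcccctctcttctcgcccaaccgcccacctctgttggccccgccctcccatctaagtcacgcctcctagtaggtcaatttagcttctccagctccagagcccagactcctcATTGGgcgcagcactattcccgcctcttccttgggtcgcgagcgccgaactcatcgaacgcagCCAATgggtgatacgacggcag
EXO1 promoter, chr1:241847954-241848223, plus strand: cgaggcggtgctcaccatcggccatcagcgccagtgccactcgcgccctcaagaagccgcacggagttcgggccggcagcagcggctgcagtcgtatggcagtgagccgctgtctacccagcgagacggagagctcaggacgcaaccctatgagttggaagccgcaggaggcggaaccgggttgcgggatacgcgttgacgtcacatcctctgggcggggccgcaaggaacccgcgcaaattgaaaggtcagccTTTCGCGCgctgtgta
MUS81 promoter, chr11:65860183-65860452, plus strand: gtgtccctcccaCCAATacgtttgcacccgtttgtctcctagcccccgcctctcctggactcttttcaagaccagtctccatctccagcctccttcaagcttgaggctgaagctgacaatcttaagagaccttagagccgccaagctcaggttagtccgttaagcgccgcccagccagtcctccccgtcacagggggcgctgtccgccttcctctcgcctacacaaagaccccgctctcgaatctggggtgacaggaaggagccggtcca

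Windows of 300 bases, from 250 before the start site to 50 after it, were searched on both strands for 3 kinds of letters in every gene of the promoter table. The first kind, E2F-like, was any of TTTCCCGC, TTTGGCGC, TTTCGCGC and TTTGCCGC, letters close to those bound by the E2F factors that drive genes at the start of S phase. The second, CHR-like, was TTTGAA or TTCGAA, close to the element bound by the MuvB complexes. The third was CCAAT, the letters bound by NF-Y. Among the 35 of 39 tested members with a promoter in the table, 8 (22.9%) had an E2F-like match in a window, compared with 6.75% of the 10015 genes tested that had a promoter and 13.4% of the 1168 such genes that fell. Those 8 were EXO1, FANCA, FANCC, FANCD2, MSH6, XRCC2, PMS2 and RMI1, the last 2 of which were not called. CHR-like letters were in 5 of 35 members (14.3%), compared with 15.4% of the genes tested and 20.7% of those that fell. CCAAT was in 18 of 35 members (51.4%), compared with 42.6% and 47.5%. Within the members, CCAAT was in 11 of the 26 that fell (42.3%) and 7 of the 9 others (77.8%), and E2F-like letters in 6 of 26 (23.1%) and 2 of 9 (22.2%). Some genes have several windows. Counted by window, E2F-like letters were in 17.6% of 51 member windows and 3.31% of all 35116. Those 35116 windows cover all 27305 genes with a promoter, tested or not, of which 3.99% had an E2F-like match. The reference by window is thus wider than the genes tested. In the windows printed, EXO1 has TTTCGCGC starting 4 bases past the start site, RAD54L has CCAAT letters at -65 and at -2, CHEK1 at -105 and MUS81 at -238, and no match overlaps another. These are letter matches and no binding was measured.

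The BRCA1 group comprised BRCA1, its ubiquitin ligase partner BARD1, the helicase BRIP1, the bridging protein PALB2, the recombinase loader BRCA2, and RBBP8 (CtIP), which starts the trimming of broken ends. Of the 6 genes, 5 fell, beside 10.1% of all genes tested. The median log2FC of the 6 was -0.88. BRCA1 had 32.3 and 42.8 TPM with sh-NC against 18.1 and 19.8 TPM with sh-ANP32B, a log2FC of -0.94 (95% interval -1.29 to -0.59, limma adjusted p = 0.0038). The control libraries of BRCA1 were the less alike pair, and both lay above both knockdown libraries, as in 32.1% of all genes tested. BARD1 had 20.7 and 19.8 TPM versus 9.56 and 9.73 TPM, which left 47.6% of the control mean, with the libraries of each group close together. RBBP8 was the most abundant of the group, with 41.8 and 43.4 TPM with sh-NC and 21.4 and 24.8 TPM after knockdown.

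BRIP1 fell from 14.4 and 13.4 TPM to 7.21 and 6.78 TPM, or 50.3% of its control mean. BRCA2 was the least abundant, at 8.59 and 9.03 TPM with sh-NC and 5.98 and 5.32 TPM with sh-ANP32B. Its log2FC of -0.56 (limma adjusted p = 0.0172) was close to the fold limit, and the call was lost without sh-NC replicate 1 (-0.60, adjusted p = 0.0572), without sh-NC replicate 2 (-0.53, adjusted p = 0.0744) and without sh-ANP32B replicate 2 (-0.49, adjusted p = 0.0684). PALB2 was not called, with 22.6 and 24.9 TPM versus 17.8 and 18.2 TPM. Its log2FC was -0.38 (95% interval -0.59 to -0.17, limma adjusted p = 0.0153), inside the fold limit. Both its knockdown libraries lay below both control libraries, as in 32.1% of all genes tested. PALB2 messages thus went from 0.699 and 0.583 per BRCA1 message with sh-NC to 0.985 and 0.920 after knockdown.

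All 7 strand exchange factors fell, beside 10.1% of all genes tested. The median log2FC of the 7 was -1.08, with a range from -1.49 to -0.65. RAD54L, a motor protein that remodels the recombinase filament, spans 46246461 to 46278480 of chromosome 1 (hg38). Its libraries read 79.8 and 79.0 TPM with sh-NC and 30.6 and 25.1 TPM with sh-ANP32B, which left 35.0% of the control mean (log2FC -1.49, standard error 0.098, limma adjusted p = 2.84e-04). Its relative RAD54B had 20.3 and 18.1 TPM versus 8.91 and 8.05 TPM, a log2FC of -1.09. In both genes of this motor family the knockdown libraries lay below the controls, as in 32.1% of all genes tested. RAD54B shares 3511 exonic bases with FSBP on the same strand. RAD54L shares 813 with LRRC41 on the opposite strand, whose log2FC was 0.26. RAD51AP1, which promotes pairing of the invading strand, went from 66.3 and 62.3 TPM to 28.7 and 31.2 TPM.

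The 4 paralogs of the recombinase among the members, RAD51C, RAD51D, XRCC2 and XRCC3, act as mediators that help it onto DNA. XRCC2 fell most, from 20.6 and 22.7 TPM to 10.5 and 8.32 TPM (log2FC -1.12, limma adjusted p = 0.00172). XRCC3 went from 29.1 and 34.9 TPM to 15.3 and 16.1 TPM, and fell by 0.98 on the log2 scale. RAD51C went from 28.3 and 32.8 TPM to 20.1 and 17.1 TPM, and fell by 0.69. The control libraries of both were further apart than those of RAD54L. No library crossed between groups, with the knockdown lower, as in 32.1% of all genes tested. RAD51D, at 8.10 and 9.83 TPM versus 4.83 and 5.88 TPM, fell least, with a log2FC of -0.65 (limma adjusted p = 0.0221). That call was lost without sh-NC replicate 2 (-0.52, adjusted p = 0.0988) or without sh-ANP32B replicate 1 (-0.53, adjusted p = 0.0807). RAD51D shares 905 exonic bases with ENSG00000267618 on the same strand. XRCC3 shares 5756 exonic bases with KLC1 on the opposite strand, whose log2FC was 0.26. The strand handling of these values is not given in the sources used here.

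Of the Fanconi genes, all 10 that were measured fell, beside 10.1% of all genes tested. The median log2FC of the 10 was -0.84. The 10 genes summed to 528 and 512 TPM with sh-NC and 278 and 278 TPM with sh-ANP32B. UBE2T, the ubiquitin-conjugating enzyme of the pathway, had the highest level of the 39 genes in sh-NC, with 125 and 114 TPM, and 64.5 and 62.5 TPM after knockdown (log2FC -0.90, standard error 0.060, limma adjusted p = 2.90e-04). FANCL, the ubiquitin ligase it serves, had 21.2 and 20.1 TPM versus 9.89 and 13.3 TPM. It shares 572 exonic bases on the opposite strand with VRK2, which fell by 0.53 on the log2 scale (limma adjusted p = 0.0113), and the part of that overlap in its value was not tested. The ratio of UBE2T to FANCL overlapped between the groups.

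FANCD2 and FANCI form the clamp that UBE2T and FANCL ubiquitinate. FANCI went from 114 and 107 TPM to 52.3 and 50.2 TPM, a log2FC of -1.09 (limma adjusted p = 1.64e-04). FANCD2 went from 86.4 and 85.4 TPM to 49.1 and 47.1 TPM, a log2FC of -0.82 (limma adjusted p = 2.38e-04). Their ratio moved from 1.32 and 1.25 with sh-NC to 1.06 and 1.07 after knockdown.

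The core complex genes ranged more widely. FANCG went from 43.9 and 43.6 TPM to 20.8 and 21.0 TPM, and FANCE from 20.2 and 21.3 TPM to 9.32 and 10.2 TPM. Their log2FC values were -1.03 and -1.02, beside -0.85 for FANCB and -0.70 for FANCA. FANCA, at 88.2 and 88.5 TPM versus 53.8 and 54.6 TPM, shares 2409 exonic bases with ZNF276 on the opposite strand. ZNF276 rose by 0.56 on the log2 scale. FANCB shares 844 exonic bases with the pseudogene NPM1P9 on the same strand. The DNA translocase FANCM (log2FC -0.58) and FANCC (-0.56) fell least. FANCM lost its call without sh-NC replicate 1 (-0.56, adjusted p = 0.0579), and FANCB, the lowest expressed at 6.47 and 8.28 TPM with sh-NC, lost it without sh-NC replicate 2 (-0.70, adjusted p = 0.0577).

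**Figure D2:**
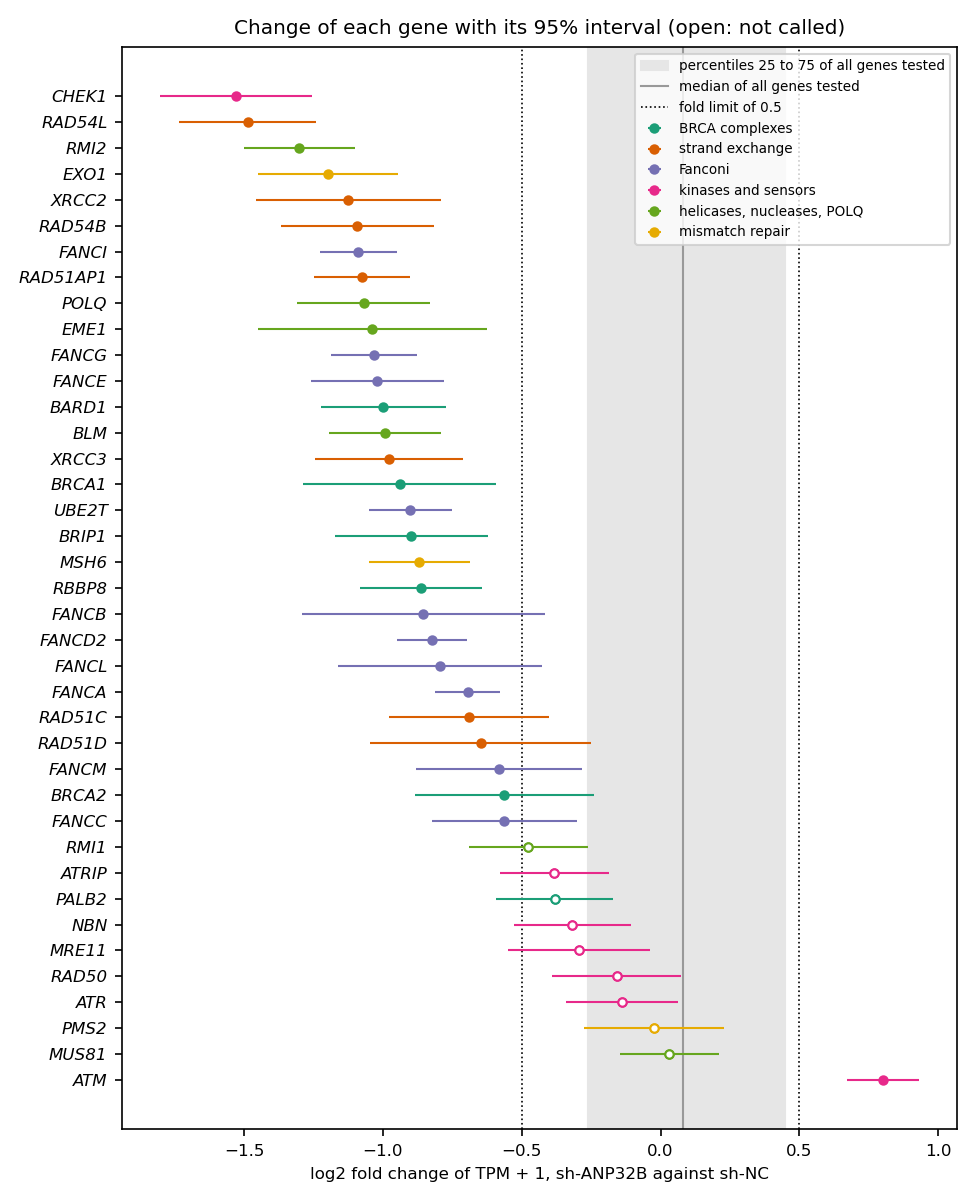
Log2FC (of TPM + 1) for each of the 39 genes with its 95% interval from limma, coloured by role, with open points for genes not called. The grey band holds percentiles 25 to 75 of all genes tested, -0.26 to 0.45. CHEK1 is lowest at -1.53, ATM highest at 0.80, and 4 of the other kinases and sensors lie between -0.32 and -0.14.

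Among the 7 damage kinases and sensors, 1 gene fell, 1 rose and 5 were not called. Of all genes tested, 10.1% fell and 17.9% rose, so the counts of this group were near those shares. CHEK1, the effector kinase that restrains the cell cycle when replication stalls, had the lowest log2FC of all 39 genes. Located at 125625163 to 125676255 of chromosome 11 (hg38), it had 49.9 and 61.7 TPM with sh-NC against 18.9 and 18.3 TPM with sh-ANP32B (log2FC -1.53, standard error 0.110, limma adjusted p = 3.50e-04). The knockdown libraries held 33.3% of its control mean. CHEK1 shares 53 exonic bases with STT3A on the same strand, whose log2FC was -0.02. It shares more, 751 exonic bases, on the opposite strand with ENSG00000288907, which had no value here.

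ATR, the kinase upstream of CHEK1 that responds to single-stranded DNA, was not called, with 19.0 and 18.5 TPM versus 17.3 and 16.6 TPM (log2FC -0.14, 95% interval -0.34 to 0.06, limma adjusted p = 0.213). Its partner ATRIP had 24.3 and 23.3 TPM versus 18.6 and 17.5 TPM, a log2FC of -0.38 (limma adjusted p = 0.0122) inside the fold limit. ATRIP shares 1448 exonic bases with TREX1 on the same strand, whose log2FC of -0.35 was similar. There were 2.62 and 3.34 CHEK1 messages per ATR message with sh-NC and 1.09 and 1.10 after knockdown.

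ATM rose. Located at 108223044 to 108369102 of chromosome 11 (hg38), it had 38.1 and 39.2 TPM with sh-NC and 67.9 and 68.0 TPM with sh-ANP32B, or 176% of the control mean (log2FC 0.80, 95% interval 0.67 to 0.93, limma adjusted p = 2.76e-04). Among the 39 genes it ranked 14 by mean TPM with sh-NC and 1 in sh-ANP32B. Its log2FC stayed between 0.70 and 0.82 under every setting tried for scaling, filters, pseudocount and single libraries. Of all genes tested, 88.7% had a value at or below that of ATM. The gene shares 124 exonic bases with C11orf65 on the opposite strand, which had 0.51 and 0.67 TPM with sh-NC and 1.37 and 1.48 TPM after knockdown.

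MRE11, RAD50 and NBN form the complex that holds broken ends and activates ATM, and none of the 3 was called. NBN had 36.8 and 41.0 TPM versus 32.5 and 29.5 TPM (log2FC -0.32, limma adjusted p = 0.0281). MRE11 had 18.0 and 18.6 TPM versus 15.9 and 13.7 TPM (-0.29, limma adjusted p = 0.0635). RAD50 had 13.9 and 14.2 TPM versus 12.8 and 12.2 TPM (-0.16, 95% interval -0.39 to 0.07, limma adjusted p = 0.216). In each of these 3 genes the knockdown libraries lay below the control libraries by a small margin, as they did by any margin in 32.1% of all genes tested. RAD50 shares 8124 exonic bases with the protein-coding gene ENSG00000283782 on the same strand, so its reads could have been divided.

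The helicases and nucleases that process joined DNA molecules were split, with 4 of 6 genes lower, beside 10.1% of all genes tested. RMI2, a subunit of the BLM dissolvase, had 62.8 and 64.5 TPM with sh-NC and 27.0 and 23.6 TPM with sh-ANP32B (log2FC -1.30, limma adjusted p = 2.33e-04). BLM itself went from 24.8 and 24.5 TPM to 11.9 and 11.8 TPM (-0.99, limma adjusted p = 4.88e-04). RMI1, the third of these partners, had 24.2 and 22.7 TPM versus 17.2 and 15.9 TPM, a log2FC of -0.48 (limma adjusted p = 0.0075) that lay just inside the limit. RMI1 was called after median-of-ratios scaling (-0.57) and quantile normalization (-0.53), and without sh-NC replicate 2 (-0.52) or sh-ANP32B replicate 1 (-0.53).

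MUS81 and EME1 form a nuclease that cuts branched DNA, and of its subunits EME1 fell and MUS81 was not called. EME1 had 42.3 and 41.6 TPM with sh-NC and 24.0 and 16.5 TPM with sh-ANP32B (log2FC -1.04, 95% interval -1.45 to -0.62, limma adjusted p = 0.0049). MUS81, on chromosome 11 from 65857126 to 65867653, had 50.4 and 53.2 TPM versus 50.2 and 55.8 TPM (0.03, 95% interval -0.15 to 0.21, limma adjusted p = 0.753). The MUS81 libraries overlapped, and the interval does not reach the fold limit of 0.5. MUS81 shares 759 exonic bases on the opposite strand with CFL1, which had 586 and 608 TPM versus 595 and 547 TPM (log2FC -0.06). The strand setting is not given, and the part of that overlap in the MUS81 value was not tested. EME1 shares 541 exonic bases on the opposite strand with LRRC59, whose log2FC was -0.33 (limma adjusted p = 0.00269). The ratio of EME1 to MUS81 was 0.840 and 0.782 with sh-NC and 0.477 and 0.297 after knockdown. POLQ, the polymerase of an alternative end-joining route, went from 21.1 and 23.3 TPM to 10.3 and 9.85 TPM and fell by 1.07 on the log2 scale.

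In mismatch repair, MSH6 and EXO1 fell and PMS2 did not pass the test. EXO1, the exonuclease that removes the mismatched stretch and also trims broken ends, had 36.0 and 36.6 TPM versus 16.7 and 13.9 TPM (log2FC -1.20, limma adjusted p = 5.60e-04). MSH6, a mismatch recognition subunit, had 34.4 and 35.6 TPM versus 19.3 and 18.1 TPM (-0.87, limma adjusted p = 5.49e-04). It shares 4022 exonic bases with FBXO11 on the opposite strand, whose log2FC was 0.18. PMS2, a subunit of the downstream endonuclease, had 18.5 and 20.7 TPM versus 18.1 and 20.5 TPM (-0.02, 95% interval -0.28 to 0.23, limma adjusted p = 0.869). The annotation names 15 pseudogenes after PMS2, so its reads could have been divided and its value is uncertain.

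**Figure D3:**
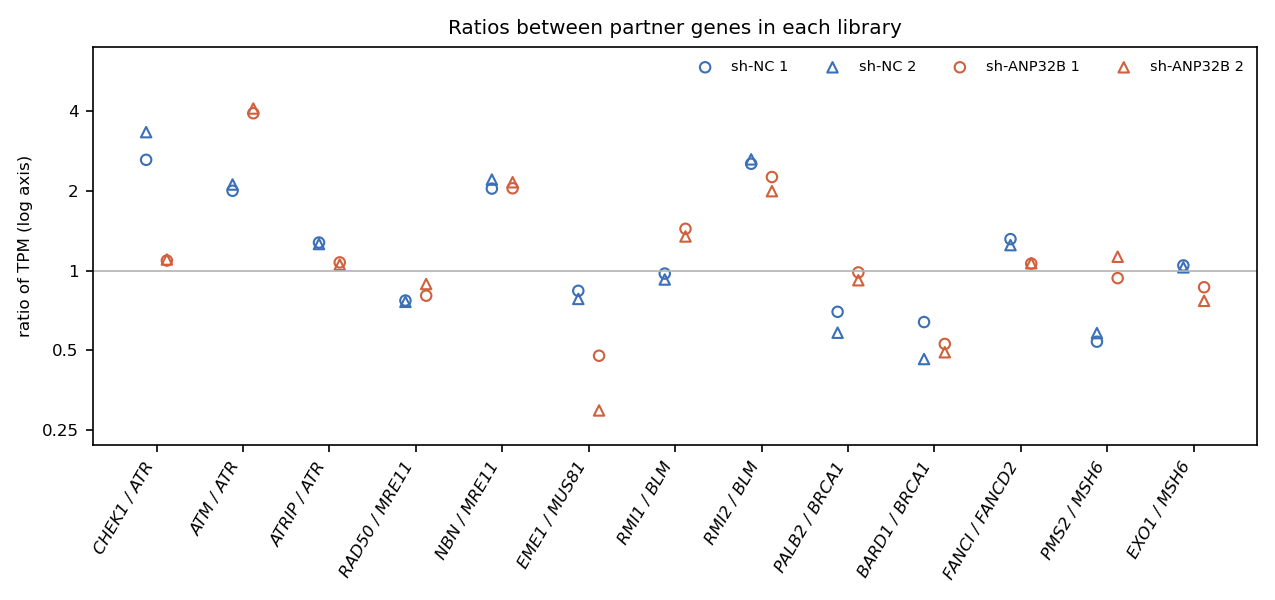
Ratio of TPM between partner genes (log axis) in each library, for 13 of the 19 pairs compared. The ratios of CHEK1 and ATM to ATR moved in opposite directions, and the ratio of NBN to MRE11 overlapped between groups at about 2.04 to 2.21.

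Ratios were computed for 19 pairs of genes that act together or in 1 step, which were picked after the values were seen and were not tested. In 9 pairs both knockdown ratios lay below both control ratios, in 7 above, and in 3 they overlapped. Such separation is common with 2 libraries per group. Of all single genes tested, 32.1% lay lower and 42.5% higher in both knockdown libraries. The share among other gene pairs was not computed, so these counts show no imbalance particular to partners. The pairs that overlapped were BARD1 to BRCA1, NBN to MRE11 and UBE2T to FANCL. The largest shifts among the 19 were CHEK1 to ATR (-1.43 on the log2 scale), EME1 to MUS81 (-1.11), ATM to ATR (0.96) and PMS2 to MSH6 (0.88).

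Other genes of recombination and the Fanconi pathway numbered 47, of which 13 fell and 4 rose, beside 10.1% and 17.9% of all genes tested. The median log2FC of the 47 was -0.28, and -0.38 after median-of-ratios scaling. RNF8, a ubiquitin ligase at broken ends, was lowest, with 15.8 and 14.6 TPM versus 4.98 and 6.28 TPM and a log2FC of -1.30. SAMHD1, a nucleotide hydrolase that also aids end resection, was highest, with 4.9 and 4.3 TPM versus 14.4 and 14.8 TPM (1.49). The checkpoint mediators CLSPN and TOPBP1 fell by 0.94 and 0.68 on the log2 scale, and USP1, which removes ubiquitin from the FANCD2 clamp, fell by 0.80. EME2, an alternative partner of MUS81, rose (0.75). These 4 genes were picked after their values were seen, and CLSPN and USP1 are also in the S phase list. For the 47 genes, the median was -0.15 without sh-ANP32B replicate 1, and 2 rose without sh-NC replicate 1 or without sh-ANP32B replicate 2.

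Across all genes tested, 10.1% fell and 17.9% rose, to be read beside each count that follows. Among 12 further genes of mismatch repair and its resynthesis step, 10 fell and 1 rose, with a median of -0.86. These include PCNA and the clamp loader subunits, which also serve replication. RFC4 was lowest (-1.15), and POLD4, a small polymerase subunit, was highest (1.32). Of 14 end-joining genes, 5 fell and 1 rose, with a median of -0.23 and a range from PAXX (-0.68) to LIG4 (0.53). Of 23 nucleotide excision repair genes, 3 fell (13.0%) and 3 rose, near the 10.1% and 17.9% of all genes tested. Their median was -0.04, and GTF2H4, a subunit of the TFIIH complex, was highest (1.07). GTF2H4 had 0.93 and 1.73 TPM versus 3.27 and 4.47 TPM, and a filter of 1 TPM in every library leaves it out. Of 19 base excision repair genes, 7 fell and 2 rose, with a median of -0.31 and a range from NEIL3 (-1.42) to NEIL1 (0.95). Scaling and single libraries decided some of these counts. After median-of-ratios scaling or quantile normalization no end-joining gene rose, and after median-of-ratios scaling 1 base excision repair gene rose. Without sh-NC replicate 1, 1 nucleotide excision repair gene and 1 base excision repair gene rose. Without sh-ANP32B replicate 2, 1 nucleotide excision repair gene rose, and without sh-ANP32B replicate 1 no end-joining gene did (limma). The nucleotide excision repair median lay at -0.13 after median-of-ratios scaling and at 0.002 without sh-NC replicate 1, so its sign was not stable. No difference between these lists was tested.

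**Figure D4:**
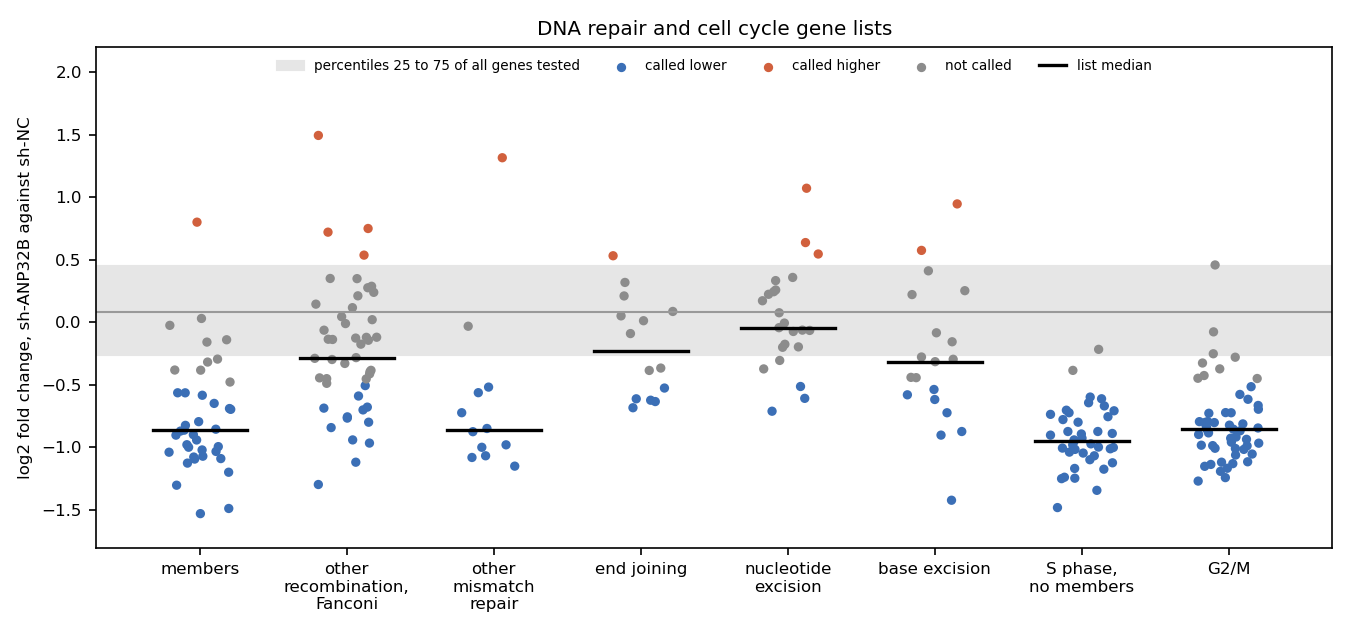
Log2FC of every tested gene in the members, the other repair lists and the cell cycle lists, with list medians as black bars and percentiles 25 to 75 of all genes as a grey band. The medians are -0.86 for the members, -0.04 for nucleotide excision repair and -0.95 for the S phase genes.

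Cell cycle genes moved with the members. The S phase and G2/M lists of the Seurat package hold 3 and 0 of the members. Without those 3, 38 of 40 S phase genes fell and none rose (median -0.95), and 44 of 53 G2/M genes fell and none rose (median -0.85). Across all genes tested, 10.1% fell and 17.9% rose. The S phase genes summed to 4285 and 4261 TPM with sh-NC and 2128 and 2120 TPM with sh-ANP32B. Monocyte markers moved the other way, with 8 of 9 higher, and summed to 1673 and 1641 TPM with sh-NC and 9155 and 9374 TPM with sh-ANP32B. LYZ rose most, from 471 and 463 TPM to 5308 and 5260 TPM, and ITGAM went from 3.5 and 3.6 TPM to 26.1 and 26.4 TPM. FCN1 went from 0.85 and 0.83 TPM to 6.22 and 5.39 TPM. FCN1 passed the filter through its knockdown libraries alone, so its rise gives no support to the count of 8. With at least 1 TPM required in every library, which also leaves out CSF1R, the median log2FC of the monocyte markers was 2.55, beside 2.41 with the main filter. CSF1R was not called, with 0.96 and 1.39 TPM versus 2.36 and 2.04 TPM. CD14 was on the list of 10 markers but was not analysed here. The part of these shifts in the results for the 39 genes was not tested. In bulk RNA, fewer cycling cells and less of these messages per cell cannot be told apart.

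The counts of members depended on the fold limit more than on the p-value. At an unadjusted p below 0.05 with the fold limit of 0.5, the limits of the study's methods, the same numbers of members were called, 29 lower and 1 higher, beside 10.8% and 20.2% of all genes. With an adjusted p and no fold limit, 33 were lower and 1 higher, beside 19.7% and 26.0% of all genes. At a fold limit of 1, 12 were lower and 0 higher, beside 1.61% and 6.71% of all genes. In each setting with a higher member it was ATM, and all counts are from limma.

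Scaling moved the reference level. The median of all genes was 0.08 for the deposited TPM and -0.04 after quantile normalization, and lower genes made up 36.1% of all calls as deposited, 48.9% after median-of-ratios scaling and 49.8% after quantile normalization. Relative to the median of all genes, the median of the 39 genes was -0.94 as deposited, -0.95 after median-of-ratios scaling and -0.86 after quantile normalization. Of the 39 genes, 26 share exonic bases with another annotated gene, 22 of them with a gene on the opposite strand.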

How the data were processed

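RNA-seq of MV4-11 cells was deposited as 1 table with 2 sh-NC and 2 sh-ANP32B libraries. The submitters' processing notes name HISAT2 (version 2.0.5) and hg38, and the quantification tool, annotation and strand setting are not given in the sources used here. The unit, TPM, is not named in the table deposited by the authors and was read from its totals, 997271 to 998546 per library. TPM keep no read numbers, so depth is unknown, and intervals reflect spread between libraries alone. Symbols were found for 17290 of 18885 identifiers. Gene positions and shared exonic bases were read from GENCODE version 44 (hg38).

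Genes reaching 1 TPM in 2 or more libraries were fitted with limma (version 3.58.1, R 4.3.3) on log2(TPM + 1), with lmFit and eBayes with a trend, and Benjamini-Hochberg adjustment over the 16937 genes. DESeq2, the study's tool, needs counts and was not run. On simulated data of 16937 genes with 200 changed, 165 were recovered and 5 unchanged genes were called. The simulated noise was normal, independent between genes and set by mean level. Far fewer genes were changed there than were called in these data (1712 lower and 3024 higher). The simulation thus checks that the code runs and gives no error rate for these calls. Promoters are from RefSeq.

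Members and lists were chosen with earlier results of these data known. Values in every library are given by rule for the 5 lowest and 5 highest members, those not called, and the most abundant and the lowest of each role, and for further members chosen for their role. Some results are not reported here. Cell cycle genes were those of Seurat 5.3.0. Alternatives were the replicate block, other filters, a pseudocount of 0.1, other scalings and call limits, no variance trend, and each library left out. Tables and plots used Python 3.11.15 with pandas 2.3.3, scipy 1.17.1 and matplotlib 3.10.9.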

Additional observations from a re-analysis of the deposited data

How the results depend on the processing

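Across the alternatives of scaling, filter, pseudocount, variance trend and replicate block, 29 or 30 members were lower and 1 higher, while of all genes 1667 to 2326 were lower and 2233 to 3023 higher. The labels number the replicates alike in both groups, but same-numbered libraries did not deviate together (correlation -0.0232 over genes, 2 pairs), so the numbers were not taken as pairs. With the replicate number as a block, 29 members were lower and 1 higher, as without it, while 1671 genes in all were lower and 2853 higher. A fold limit of 1 left 12 members lower and 0 higher, and 273 of all genes lower and 1136 higher. With an adjusted p and no fold limit, 3342 of all genes were lower. The median log2 fold change of the members was -0.96 after median-of-ratios scaling.

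With each library left out in turn, 27 to 29 members were lower and 1 was higher, the median ranged from -0.86 to -0.83, and of all genes 1517 to 1680 were lower and 2357 to 2677 higher. In those fits a lone library is assumed to vary like the other group. No member's direction was reversed where it was called. The TPM hold no depth, so counting error for members under 10 TPM, such as FANCB and BRCA2, cannot be separated from the spread between libraries.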
